A study of Mus musculus with 7 samples.

Results

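The set described here holds 10 genes, namely the mouse genes of the major histocompatibility complex (MHC) class II antigen presentation machinery that the gene table lists under H2-Aa, H2-Ab1, H2-Eb1, H2-DMa, H2-DMb1, H2-DMb2, H2-Oa, H2-Ob and Cd74, together with Ciita. They were chosen by symbol, with no cut on their values, although earlier results of these data were known. All 10 were found among the 23420 gene entries of the table. Total RNA of hearts from 7 mice aged 3 to 6 weeks was sequenced in bulk. The tissue label reads whole heart and the extraction protocol names flash-frozen ventricle. The 4 controls had the genotype Ctla4+/+;Pdcd1-/- and the 3 ICI-myocarditis mice had the genotype Ctla4+/-;Pdcd1-/-. All 7 animals therefore carried the Pdcd1 deletion, no animal was treated, and the groups differ, per the labels, in 1 copy of Ctla4. ICI stands for immune checkpoint inhibitor, and in these mice the loss of the checkpoint genes Ctla4 and Pdcd1 takes the place of a drug. The sources used here give neither the strain and sex of the animals nor the age of each one.

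MHC class II molecules are pairs of an alpha and a beta chain that show peptides from endosomes to CD4 T cells. Newly made pairs bind the invariant chain, encoded by Cd74, which fills the peptide groove and steers them to endosomes, where H2-DM removes the last fragment of the chain and edits the bound peptides, and H2-O holds H2-DM back. Dendritic cells, macrophages and B cells carry class II constantly or after activation, while most other cells make it only after interferon-gamma. Transcription of these genes depends on CIITA, a coactivator that does not bind DNA itself but docks on RFX, NF-Y and CREB factors, which sit on the X and Y boxes of class II promoters.

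The X and Y boxes are the motifs through which class II genes are known to be switched on together, and 5 promoters are shown here. Each window was placed around a match to the Y box core, so that all 5 carry it follows from this choice. The windows of H2-Eb1, H2-Oa and H2-Ob also match X box letters. The RefSeq promoter table (GRCm38.p6) held 7 of the 10 members, namely the H2 genes other than H2-Ab1. Each window runs 70 bases on the coding strand, and capitals mark ATTGG, the Y box core CCAAT read on this strand, and any match to the X box letters AGNAAC or to the longer X1 box core.
H2-Eb1: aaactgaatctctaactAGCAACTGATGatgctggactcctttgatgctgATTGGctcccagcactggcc
H2-Aa: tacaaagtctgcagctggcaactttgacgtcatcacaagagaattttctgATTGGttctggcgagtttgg
H2-DMb2: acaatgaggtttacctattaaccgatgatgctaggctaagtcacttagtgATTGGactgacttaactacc
H2-Oa: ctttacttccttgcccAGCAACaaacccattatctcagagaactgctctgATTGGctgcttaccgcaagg
H2-Ob: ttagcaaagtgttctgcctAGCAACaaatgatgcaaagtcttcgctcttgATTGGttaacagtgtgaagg

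These windows lie at chr17:34305758-34305827 (plus strand) for H2-Eb1, chr17:34287852-34287921 (minus strand) for H2-Aa and chr17:34145109-34145178 (plus strand) for H2-DMb2. Those of H2-Oa and H2-Ob lie at chr17:34092286-34092355 and chr17:34238798-34238867, both on the plus strand, and the last 16 bases of the H2-Oa window lie in a GENCODE exon of that gene. The first base of ATTGG stood 59 bases before the annotated start for H2-Eb1, 48 for H2-Aa, 90 for H2-DMb2, 43 for H2-Oa and 57 for H2-Ob. A match to AGNAAC began 33 bases before ATTGG in H2-Eb1, 34 in H2-Oa and 31 in H2-Ob, and H2-DMb1, whose window is not printed, had the same pair 34 bases apart. H2-Aa and H2-DMb2 had no match to either X box pattern in the 250 bases before their start, and the 2 windows listed for H2-DMa held no such pair. The H2-DMa window that begins at base 34122582 also held no CCAAT. Among 32851 RefSeq promoters searched over the same 250 bases on both strands, 33.8% held CCAAT, 42.3% held AGNAAC, 0.682% held the longer X1 box core, which overlaps AGNAAC, and 0.475% held AGNAAC followed by ATTGG at a spacing of 28 to 38 bases. All 5 windows shown also read TGATTGG, a string picked after they had been read, which 7.23% of the promoters held. A match is a description of letters and not of binding.

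Of the members, 8 lie within 224 kb of chromosome 17, from base 34092340 to base 34316674 (GRCm38, GENCODE M21). In order along the chromosome these are H2-Oa, H2-DMa, H2-DMb2, H2-DMb1, H2-Ob, H2-Ab1, H2-Aa and H2-Eb1, all on the plus strand except H2-Aa. Cd74 lies at chr18:60803848-60812652 and Ciita at chr16:10480059-10528418, both on the plus strand. Ciita overlaps Dexi, H2-DMa overlaps Brd2 and H2-Oa overlaps BC051537, each on the other strand. Further annotated overlaps, for which no values are given here, are Gm20513 with H2-Eb1 and CR974462.4 and Gm20493 with H2-DMa on the other strand. On the same strand CR974462.3 overlaps H2-DMa and Mir5107 overlaps Cd74. Dexi and Brd2 did not pass the test (log2 fold change 0.25 and 0.34, adjusted p = 0.547 and 0.362 by limma), and BC051537 was at 0 in all controls and at most 0.764 normalized counts elsewhere.

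The deposited values are gene read counts that the authors scaled by library, called normalized counts below. Whole reads could be recovered from them, and the libraries held 20931730 to 39037176 reads. The targeted genes were read first. Ctla4 stood at 63.3 ± 37.4 normalized counts in the 4 controls and 302.0 ± 63.4 in the 3 ICI-myocarditis hearts (mean ± SD), and Pdcd1 at 64.8 ± 119.7 and 1305 ± 195. Which part of each gene the alleles remove is not given in the sources used here, so these gene-level counts check no genotype. Cardiomyocyte genes were abundant in every library, with Myh6, the adult heart myosin, between 402804 and 1196030 normalized counts. Control 2 stood apart from the other controls in the members, as described below, and each count of members is therefore also given without it.

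Every one of the 10 members was higher in ICI-myocarditis. Each was called at an adjusted p under 0.05 by limma, where 15.7% of the 15258 genes tested were called, 11.7% higher and 4.0% lower, and for each the lowest ICI-myocarditis library lay above the highest control, which 17.3% of tested genes also showed. In bulk tissue more cells that carry these genes and more RNA per cell cannot be told apart. The median log2 fold change of the members was 3.91, against -0.02 over all genes tested. H2-Ob had a log2 fold change of 2.00 and the other 9 lay between 3.63 and 4.21. Without control 2 all 10 still passed (14.9% of genes were then called higher). On the recovered reads edgeR called 9 of 10, all but H2-Ob, beside 10.1% of genes called higher. Leaving out ICI-myocarditis 2 or ICI-myocarditis 3 left 8 members called, without the H2-O chains, beside 7.07% and 5.51% of genes called higher. The authors' deposited table also lists all 10 as higher at an adjusted p under 0.05, beside 12.9% of the 16882 genes with an adjusted p there, with log2 fold changes from 1.753 for H2-Ob to 4.048 for H2-DMb2.

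**Figure D1:**
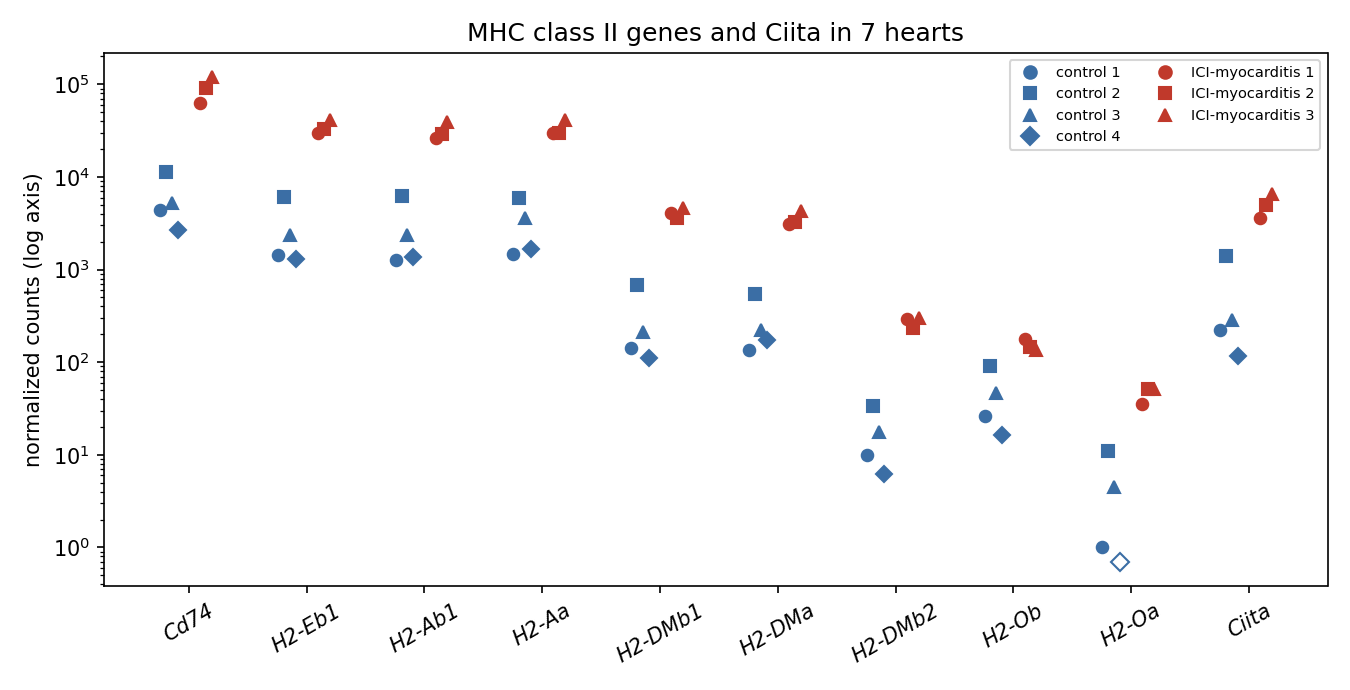
Normalized counts (log axis) of the 10 members in each of the 7 hearts; blue marks are the 4 controls, red marks the 3 ICI-myocarditis hearts, and the open mark is H2-Oa in control 4, which was at 0 and is drawn at the bottom of the axis. The red marks lie above all blue marks for every member, and control 2 (blue square) is the highest control each time.

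The chains of the classical class II molecules, which present peptide at the cell surface, come first. H2-Aa, the alpha chain of I-A, stood at 1457, 5969, 3563 and 1664 normalized counts in controls 1 to 4 and at 29834, 29462 and 41377 in ICI-myocarditis 1 to 3. The groups were far apart, and within the controls libraries 2 and 3 were above libraries 1 and 4. The means differed 10.6-fold and the log2 fold change was 3.63 (SE 0.471, adjusted p = 0.00331 by limma).

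H2-Ab1 encodes the beta chain that pairs with H2-Aa. Its values were 1281, 6174, 2366 and 1374 in the controls and 26546, 28830 and 38760 in ICI-myocarditis. The order of the libraries was nearly that of H2-Aa, with control 2 high among the controls and ICI-myocarditis 3 highest of all. The log2 fold change was 3.78 (SE 0.505, adjusted p = 0.0036 by limma).

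H2-Eb1, the beta chain of I-E, was counted at 1453, 6111, 2363 and 1295 in the controls and at 29767, 32851 and 41404 in ICI-myocarditis. No control came near the ICI-myocarditis hearts, the lowest of which was 4.87 times control 2. H2-Eb1 rose by 3.91 on the log2 scale (SE 0.491, adjusted p = 0.00316 by limma). Its partner chain is listed as H2-Ea-ps, the entry for the E alpha gene that is inactive in some mouse strains, and this entry was at 0 in all 7 libraries, where 3 reads, the limit that a count of 0 allows, would be 2.17 to 3.75 normalized counts. H2-Eb2, a neighbouring beta chain gene, stood at 1.01 to 14.8 in the controls and 36.2 to 48.9 in ICI-myocarditis (a log2 change of 2.85, SE 0.656, adjusted p = 0.0193 by limma), a call lost without control 3 or any 1 ICI-myocarditis library (adjusted p up to 0.089). H2-Eb1 and H2-Eb2 transcripts share 0 stretches of 50 bases.

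Cd74 encodes the invariant chain, which also serves at the cell surface as a receptor for the cytokine MIF. It was counted at 4423, 11266, 5190 and 2655 in the controls and at 62218, 91448 and 119313 in ICI-myocarditis. The 3 ICI-myocarditis hearts were more widely spaced than for the I-A chains, and still the lowest was 5.52 times control 2. The log2 fold change was 4.10 (SE 0.467, adjusted p = 0.00251 by limma) and the fold of means 15.5.

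H2-DM, the peptide editor, is a pair of H2-DMa with either H2-DMb1 or H2-DMb2. H2-DMa stood at 135.1, 547.7, 225.6 and 175.2 in the controls and at 3097, 3302 and 4284 in ICI-myocarditis. These ICI-myocarditis values were close together, and the gap to control 2 was 5.65-fold. H2-DMa rose by 3.92 on the log2 scale (SE 0.421, adjusted p = 0.00251 by limma).

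H2-DMb1, its main beta chain gene, was at 142.2, 679.7, 214.4 and 111.4 in the controls and at 4078, 3619 and 4607 in ICI-myocarditis. Control 2 was 4.36 times the mean of the other controls, yet below every ICI-myocarditis heart. H2-DMb1 had a log2 fold change of 4.21 (SE 0.529, adjusted p = 0.00316 by limma). H2-DMb2 stood at 10.08, 33.3, 17.9 and 6.26 in the controls and at 294.7, 236.3 and 302.6 in ICI-myocarditis, a log2 fold change of 4.20 (SE 0.51, adjusted p = 0.00288 by limma). The paralogs are near copies, with 22.7% of the 50-base stretches of H2-DMb1 transcripts also present in H2-DMb2 and 21.2% the other way, so the split of reads between them is uncertain.

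H2-O, the brake on H2-DM, is known mainly from B cells, thymic epithelium and subsets of dendritic cells, and its chains had the fewest reads of all members in ICI-myocarditis. H2-Oa, the alpha chain, had 1, 9, 4 and 0 reads in the controls and 35, 71 and 68 reads in ICI-myocarditis. In normalized counts this is 1.01, 11.1, 4.47 and 0 against 35.8, 51.5 and 52.0, with the count of 0 in control 4 allowing up to 3.75. The controls were all low and did not reach the ICI-myocarditis hearts. H2-Oa rose by 3.78 on the log2 scale (SE 0.806, adjusted p = 0.0141 by limma), but missed the threshold without ICI-myocarditis 2 (adjusted p = 0.0549 by limma) or ICI-myocarditis 3 (adjusted p = 0.0664 by limma). The size of the change depended on the method at these low counts, with 2.23 at a pseudocount of 8, 3.45 in edgeR and 3.50 in DESeq2.

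H2-Ob, the beta chain, was at 26.2, 91.3, 46.9 and 16.3 in the controls and at 176.0, 145.7 and 134.5 in ICI-myocarditis. Here control 2 came within 1.47-fold of the lowest ICI-myocarditis heart, and ICI-myocarditis 3, the highest of all hearts in 9 of the 10 members, was the lowest of its group. The log2 fold change was 2.00 (SE 0.529, adjusted p = 0.033 by limma) and the fold of means 3.37. This call was the least firm of the set, since 8 of 16 alternative analyses passed the threshold. Leaving out control 1, control 3 or any ICI-myocarditis library gave adjusted p-values between 0.0698 and 0.0972 by limma, and edgeR's quasi-likelihood test on the recovered reads gave 0.0639.

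Ciita encodes the coactivator itself. It stood at 221.8, 1393, 288.1 and 117.6 normalized counts in the controls and at 3593, 4998 and 6580 in ICI-myocarditis. Control 2 was again the highest control, at 4.83 times the next, and lay below the lowest ICI-myocarditis heart by a factor of 2.58. Ciita rose by 3.93 on the log2 scale (SE 0.694, adjusted p = 0.00716 by limma), and by 4.64 without control 2. The recovered reads gave 3.28 with edgeR (adjusted p = 0.0259).

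**Figure D2:**
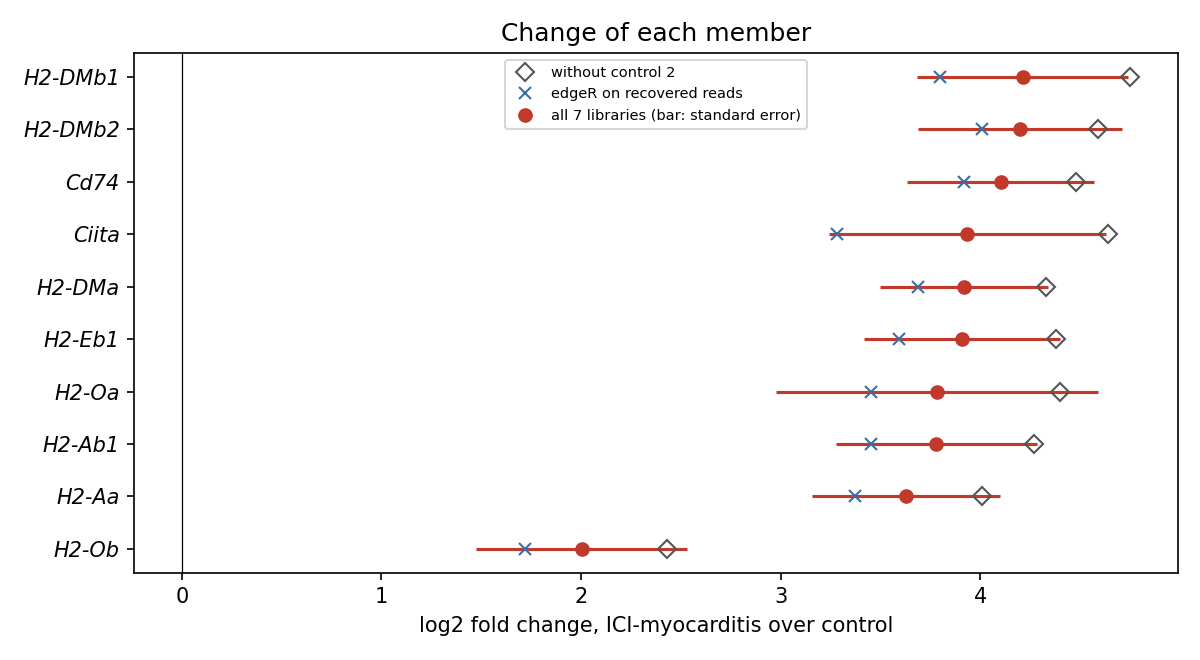
Log2 fold change of each member, ICI-myocarditis over control: red points with bars are limma estimates with standard errors over all 7 libraries, crosses edgeR on recovered reads, and open diamonds limma without control 2. H2-Ob lies at 2.00 and the other 9 between 3.63 and 4.21, and for every member leaving out control 2 moves the estimate up and edgeR moves it down.

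The controls were not alike. Control 2 was the highest control for 10 of 10 members and control 3 the second highest for 10 of 10, while control 4 was lowest for 7 and control 1 for 3. Over all genes tested control 2 was the highest control in 35.3%. On the log2 scale control 2 lay a median of 1.35 above the mean of the 4 controls over the members and control 4 lay at -0.96. Ciita and H2-Oa had the widest gaps, with control 2 at 6.66 and 6.08 times the mean of the other controls, and H2-Aa the narrowest, at 2.68 times. Leaving control 2 out raised the log2 fold change to 4.01 for H2-Aa, 4.27 for H2-Ab1, 4.38 for H2-Eb1, 4.48 for Cd74 and 4.75 for H2-DMb1.

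As a share of all recovered reads the 10 members together made up 0.0279%, 0.125%, 0.0479% and 0.0198% in controls 1 to 4 and 0.558%, 0.689% and 0.956% in ICI-myocarditis 1 to 3. The means were 0.0552% ± 0.048 (SD, n = 4) and 0.735% ± 0.203 (SD, n = 3), a 13.3-fold difference that does not depend on the size factors. An exact permutation of the 7 libraries, two-sided, gave p = 0.0286, the smallest it can give. Cd74 and the classical chains H2-Aa, H2-Ab1 and H2-Eb1 accounted for most of these reads. Within the family Cd74 took 38.8% ± 6.35 of the reads in the controls and 44.1% ± 4.46 in ICI-myocarditis, with control 1 highest of all at 48.3%. H2-Ob took 0.279% ± 0.045 and 0.0791% ± 0.0292, and no ICI-myocarditis library reached the lowest control.

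Levels per length place the members in an order. In normalized counts per kilobase of exon, ICI-myocarditis hearts had 54195 ± 17004 for Cd74, 17836 ± 3101 for H2-Eb1, 12219 ± 2529 for H2-Ab1 and 8836 ± 1784 for H2-Aa (SD, n = 3). H2-DMb1 followed with 2440 ± 294, H2-DMa with 1033 ± 184, Ciita with 530 ± 157 and H2-DMb2 with 159 ± 20.7. H2-Oa and H2-Ob were lowest, with 33.0 ± 6.53 and 28.3 ± 3.99. The ranges over the 3 hearts overlapped for the neighbours H2-Ab1 and H2-Aa and for H2-Oa and H2-Ob, and for no other neighbours. With the length of the longest coding transcript in place of the exon union, the 3 classical chains came out in the opposite order (H2-Aa 29750, H2-Ab1 25890, H2-Eb1 20775) and H2-Ob (56.9) above H2-Oa (42.7), so these positions depend on the length used. Cd74 stood first with both lengths. In the controls the order per kilobase of exon was the same except that H2-Ob (8.40) stood above H2-Oa (2.95).

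Ratios within a library do not depend on scaling. Those between members test whether members differed in their fold, and the others set members against class I genes or cell type marker sums. Of 14 ratios tested by exact two-sided permutation, 5 reached the smallest possible p of 0.0286 and 0 passed after Benjamini-Hochberg adjustment, where these 5 stood at 0.08. The 5 include classical chains to dendritic and to B cell marker sums, which do not compare members with each other. The design could give an adjusted p under 0.05 only if at least 9 of the 14 reached the smallest p, so an adjusted p above the threshold does not show that ratios were alike.

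H2-O against H2-DM was one of the 5. The summed H2-O counts were 0.0947, 0.0812, 0.112 and 0.0556 of the summed H2-DM counts in the controls and 0.0284, 0.0275 and 0.0203 in ICI-myocarditis. The ratio was lower in every ICI-myocarditis heart than in any control, with a log2 difference of -1.76 (exact permutation p = 0.0286, adjusted 0.08). Within H2-O, the ratio of H2-Oa to H2-Ob was 0.0385, 0.122, 0.0952 and 0 in the controls and 0.203, 0.353 and 0.386 in ICI-myocarditis (log2 difference 1.78, exact permutation p = 0.0286, adjusted 0.08), from 9 or fewer H2-Oa reads in each control. With a pseudocount of 8 in place of 1 this difference was 0.45 and no longer at the smallest p (adjusted exact permutation p = 0.24).

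H2-DM against the classical chains was higher in all 3 ICI-myocarditis hearts than in any control, by less. The ratio was 0.0686, 0.0691, 0.0552 and 0.0676 in the controls and 0.0867, 0.0785 and 0.0756 in ICI-myocarditis (log2 difference 0.30, exact permutation p = 0.0286, adjusted 0.08). Several other ratios overlapped between the groups. For the I-A pair, H2-Aa to H2-Ab1 ran from 0.967 to 1.51 in the controls and from 1.02 to 1.12 in ICI-myocarditis (exact permutation p = 0.429). For the H2-DM pair, H2-DMa to the summed beta chains ran from 0.768 to 1.49 in the controls and from 0.708 to 0.873 in ICI-myocarditis (exact permutation p = 0.343). The alternative beta chains, H2-DMb2 to H2-DMb1, ran from 0.049 to 0.0833 and from 0.0653 to 0.0723 (exact permutation p = 0.971). Cd74 to the classical chains was 1.06 in control 1, 0.613 to 0.626 in the other controls and 0.722, 1.0 and 0.982 in ICI-myocarditis (exact permutation p = 0.229).

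Classical chains per unit of Ciita were likewise spread over one range. The summed counts of H2-Aa, H2-Ab1 and H2-Eb1 were 18.9, 13.1, 28.8 and 36.8 times those of Ciita in the controls and 24.0, 18.2 and 18.5 times in ICI-myocarditis. Control 2, where Ciita was high, had the lowest ratio and control 4 the highest. The log2 difference was -0.17 (exact permutation p = 0.714).

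**Figure D3:**
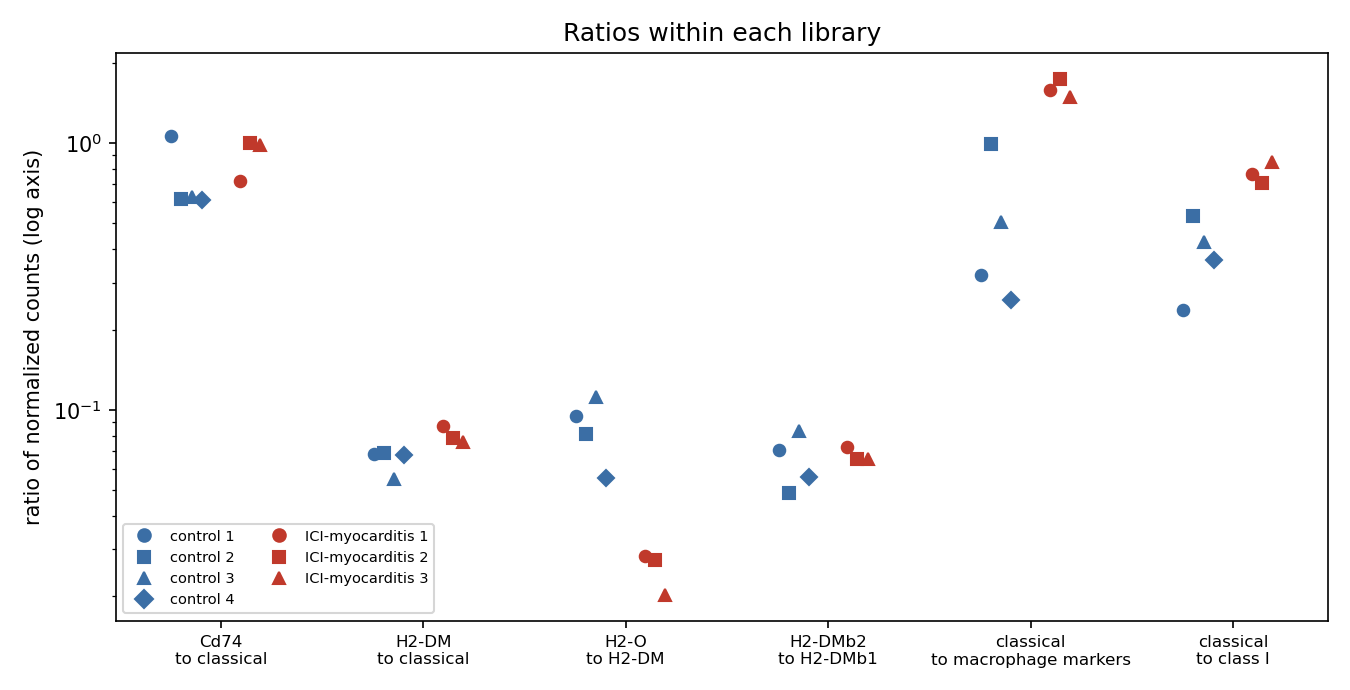
Ratio of summed normalized counts within each library (log axis) for 6 of the 14 ratios; blue marks are controls, red marks ICI-myocarditis hearts, and classical means H2-Aa, H2-Ab1 and H2-Eb1. The red marks lie below all blue marks for H2-O to H2-DM, above them for H2-DM to classical, for classical to macrophage markers and for classical to class I, and among them for Cd74 to classical and for H2-DMb2 to H2-DMb1.

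The genes that bring Ciita about were read next, beginning with the interferon-gamma pathway. Of 9 such genes 5 rose and 0 fell, with a median log2 fold change of 0.82. Ifng, which encodes the cytokine, stood at 2.02, 55.5, 4.47 and 0 in the controls and at 243.5, 283.4 and 583.0 in ICI-myocarditis (a log2 change of 5.96, SE 1.14, adjusted p = 0.00935 by limma). As for Ciita, control 2 was the highest control. The other controls had few Ifng reads, and the count of 0 in control 4 allows up to 3.75 normalized counts, so their order is uncertain. Irf1, a transcription factor through which interferon-gamma acts on the Ciita promoter, rose by 2.29 (SE 0.472, adjusted p = 0.0123 by limma). Irf2 rose by 0.89 and the kinase gene Jak2 by 0.82. Irf1 missed the threshold without ICI-myocarditis 3 (adjusted p = 0.0552 by limma), and Irf2 and Jak2 missed it without control 1, control 3, ICI-myocarditis 2 or ICI-myocarditis 3, Jak2 also without control 4, with adjusted p-values up to 0.157 by limma. The receptor genes Ifngr1 (0.31) and Ifngr2 (-0.47), Jak1 (-0.02) and Usf1 (0.43) did not pass the test.

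Among 5 genes known to set Ciita transcription in leukocytes 2 rose, 0 fell and the median was 1.31. Irf8, a factor of dendritic cells and macrophages, stood at 259.0 to 1145 in the controls and 2726 to 4884 in ICI-myocarditis (a log2 change of 3.04, SE 0.485, adjusted p = 0.00504 by limma), and Irf4 rose by 2.07 (SE 0.525, adjusted p = 0.0283 by limma). Irf4 missed the threshold without control 1 or any 1 ICI-myocarditis library, with adjusted p-values up to 0.123 by limma. Prdm1, the repressor of Ciita in plasma cells, had a log2 fold change of 1.31, Zeb1 one of -0.42 and Foxo3 one of -0.18, without passing the test. A sixth listed gene, Spi1, was not matched in the table.

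The DNA-binding factors on which CIITA docks form the next list. Of 8 enhanceosome genes 0 passed the test in either direction (limma; 3 at an unadjusted p under 0.05), and the median log2 fold change was 0.06. Rfx5, the large RFX subunit, stood at 250.0, 467.5, 398.6 and 302.8 in the controls and at 474.7, 629.8 and 725.9 in ICI-myocarditis, so that the groups were apart by a narrow margin (log2 fold change 0.80, SE 0.265, adjusted p = 0.0729 by limma). Rfxap, another RFX subunit, stood at 316.0 to 399.1 and at 211.8 to 273.2 (log2 fold change -0.54, SE 0.2, adjusted p = 0.0999 by limma). Rfxank, the third subunit, and the NF-Y genes Nfya, Nfyb and Nfyc had log2 fold changes of 0.28, 0.07, 0.07 and -0.39.

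Genes that cut the invariant chain or prepare peptides for class II followed. Of 10 measured members of this list 5 rose, 0 fell and the median was 0.90. Ctss, the cathepsin that trims the invariant chain in antigen-presenting cells, stood at 591.8, 1917, 838.6 and 728.2 in the controls and at 15375, 14909 and 24956 in ICI-myocarditis, a log2 fold change of 4.29 (SE 0.393, adjusted p = 0.00251 by limma), close in size to that of Cd74. Ifi30, the lysosomal thiol reductase, rose by 3.10 (SE 0.429, adjusted p = 0.00376 by limma), Ctsz by 2.02, Lgmn by 1.45 and Cd83, whose product slows class II turnover, by 1.03, a call lost without control 1, ICI-myocarditis 1 or ICI-myocarditis 2 (adjusted p up to 0.103 by limma). Ctsl, the cathepsin that does the work of Ctss in thymic epithelium, had a log2 fold change of -0.20 (adjusted p = 0.627 by limma), and Ctsd one of 0.07.

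The partners of class II and CD74 outside the presenting cell were measured in the same libraries. Cd4, the coreceptor that binds class II on T cells and is also found on some mouse myeloid cells, rose from 42.4 to 92.5 normalized counts across the controls to 332.5 to 683.1 (log2 fold change 2.89, SE 0.37, adjusted p = 0.00316 by limma). Lag3, an inhibitory receptor that also binds class II, stood at 27.9 to 246.7 and at 1100 to 1906 (log2 fold change 4.68, SE 0.688, adjusted p = 0.00411 by limma). Of 4 tested genes linked to CD74 at the surface 1 rose, namely Cd44, its signalling partner (log2 fold change 2.52, SE 0.269, adjusted p = 0.00251 by limma). The ligand gene Mif had a log2 fold change of 0.46 and Cxcr4 one of 0.67, with limma adjusted p-values of 0.372 and 0.184.

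Other genes of the class II region were read as positional neighbours of the members. Of 13 tested neighbours 6 rose, 0 fell and the median was 0.74. Those that rose were H2-Eb2 and genes that serve class I presentation, namely the transporter genes Tap1 (log2 fold change 3.30) and Tap2 (1.91), the immunoproteasome genes Psmb8 (3.00) and Psmb9 (2.95), and Tapbp (1.76), with limma adjusted p-values between 0.00492 and 0.0193. Brd2, Notch4, Rxrb, Ring1, Slc39a7 and Col11a2 had log2 fold changes between -0.29 and 0.34 and limma adjusted p-values between 0.362 and 0.841, and Daxx stood at 0.74 (0.0585). The class I genes H2-K1, H2-D1 and B2m and their coactivator Nlrc5, a relative of Ciita, all 4 rose, by 2.89, 2.51, 2.63 and 3.41, Nlrc5 missing the threshold without ICI-myocarditis 3 (adjusted p = 0.0509 by limma). Classical class II counts were 0.236, 0.534, 0.427 and 0.364 of the summed class I counts in the controls and 0.764, 0.706 and 0.848 in ICI-myocarditis, every one above every control (log2 difference 1.04, exact permutation p = 0.0571, adjusted 0.114).

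**Figure D4:**
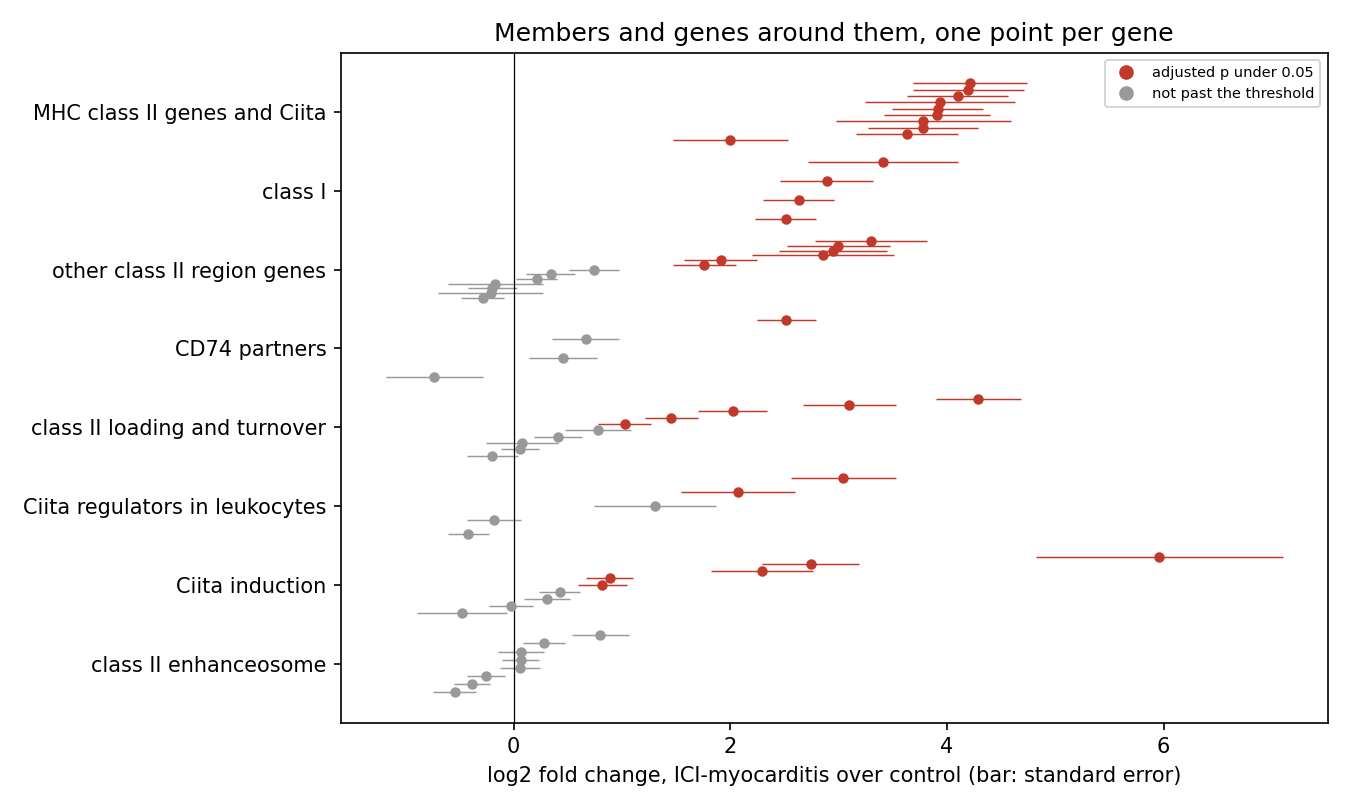
Log2 fold change with standard error, ICI-myocarditis over control, of the 10 members and of the tested genes of 7 lists, 1 point per gene; red points passed an adjusted p of 0.05 in limma and grey points did not. The 10 members are all red with a median of 3.91, and the 8 enhanceosome genes are all grey around a median of 0.06.

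Most macrophage and dendritic cell markers rose together with the members, and B cell and endothelial markers are given after them. Of 9 measured macrophage and monocyte markers 8 rose (median 2.55 on the log2 scale). Among those that rose, Ccr2 passed the threshold in 6 of 16 alternative analyses, Lyz2 in 14 and Csf1r in 15. The summed counts of the 9 markers were 13099 to 18428 in the controls and 52367 to 81667 in ICI-myocarditis. Classical class II counts were 0.320, 0.991, 0.507 and 0.258 of that sum in the controls and 1.58, 1.74 and 1.49 in ICI-myocarditis. The class II genes thus stood higher relative to these markers in every ICI-myocarditis heart (log2 difference 1.83, exact permutation p = 0.0571, adjusted 0.114), with control 2 highest among the controls. For Ciita the same ratio was 0.0169, 0.0756, 0.0176 and 0.00702 in the controls and 0.0659, 0.0954 and 0.0806 in ICI-myocarditis, so control 2 lay within the ICI-myocarditis range.

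Of 8 dendritic cell markers 5 rose (median log2 fold change 3.28, sums 723 to 2891 in the controls and 2977 to 4612 in ICI-myocarditis), among them Itgax and Xcr1, while Zbtb46, Clec9a and Cd209a did not pass the test. Itgax missed the threshold without ICI-myocarditis 3 (adjusted p = 0.0542 by limma) and in edgeR (adjusted p = 0.0716). The ratio of classical class II to this sum was 3.43 to 7.29 in the controls and 23.8 to 28.9 in ICI-myocarditis (log2 difference 2.24, exact permutation p = 0.0286, adjusted 0.08). In the controls the sum was led by Zbtb46 (mean 863, log2 fold change -0.47) and Clec9a (mean 346), which were not called. With the mean of log2 marker values in place of the sum, the difference was 1.32 (adjusted exact permutation p = 0.08). Of 7 tested B cell markers 2 rose, Cd22 and Cd79b (named after their values were seen), and the median was -0.16. Without ICI-myocarditis 3 both missed the threshold (adjusted p = 0.0527 and 0.116 by limma), and Cd79b also without control 1 or any other ICI-myocarditis library. Ms4a1 and Pax5, which mark B cells, were at or under 27.9 normalized counts in every library, and the B cell sums overlapped, at 97.6 to 344.2 in the controls and 324.3 to 612.0 in ICI-myocarditis. H2-Ob and H2-Oa, the members known best from B cells, are to be read beside these values. All 5 measured T cell markers rose, with a median of 5.20 and sums of 96.3 to 1158 and 5464 to 8319.

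Endothelial cells, which can carry class II after interferon-gamma, gave lower marker counts. Of 5 endothelial markers 3 fell and 0 rose (median log2 fold change -1.16), with sums of 22917 to 58073 in the controls and 14194 to 21324 in ICI-myocarditis. Of 5 cardiomyocyte markers 0 passed the test (limma; 1 at an unadjusted p under 0.05), with a median of -0.63. Thymus and lymph node, which are rich in class II and lie near the heart, were read through markers of their own. Foxn1, which defines thymic epithelium, and the lymph node genes Ccl21a and Glycam1 were at 0 in all 7 libraries. Rag1 was above 0 only in control 3 (6.70). The thymus list was not free of signal. Its gene Ccr9 stood at 30.2, 113.5, 71.5 and 13.8 in the controls and at 56.3, 42.0 and 78.7 in ICI-myocarditis. Control 2 was its highest library, and Ccr9 did not pass the test (log2 fold change 0.39, adjusted p = 0.74 by limma). Aire, also on that list, had low counts above 0 in every library except control 2. The lymph node list held signal too, with sums of 0 to 4.03 in the controls and 15.3 to 114.6 in ICI-myocarditis. Its gene Cxcl13, a B cell attractant, rose from at most 3.75 normalized counts in the controls to 12.3, 44.2 and 112.3. The log2 fold change of Cxcl13 was 4.12 (SE 0.812, adjusted p = 0.0104 by limma). Ccl19, on the same list and too low to be tested, stood at 0 to 1.12 in the controls and 2.29 to 3.62 in ICI-myocarditis. The part of any of these cell types in the class II values was not tested.

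**Figure D5:**
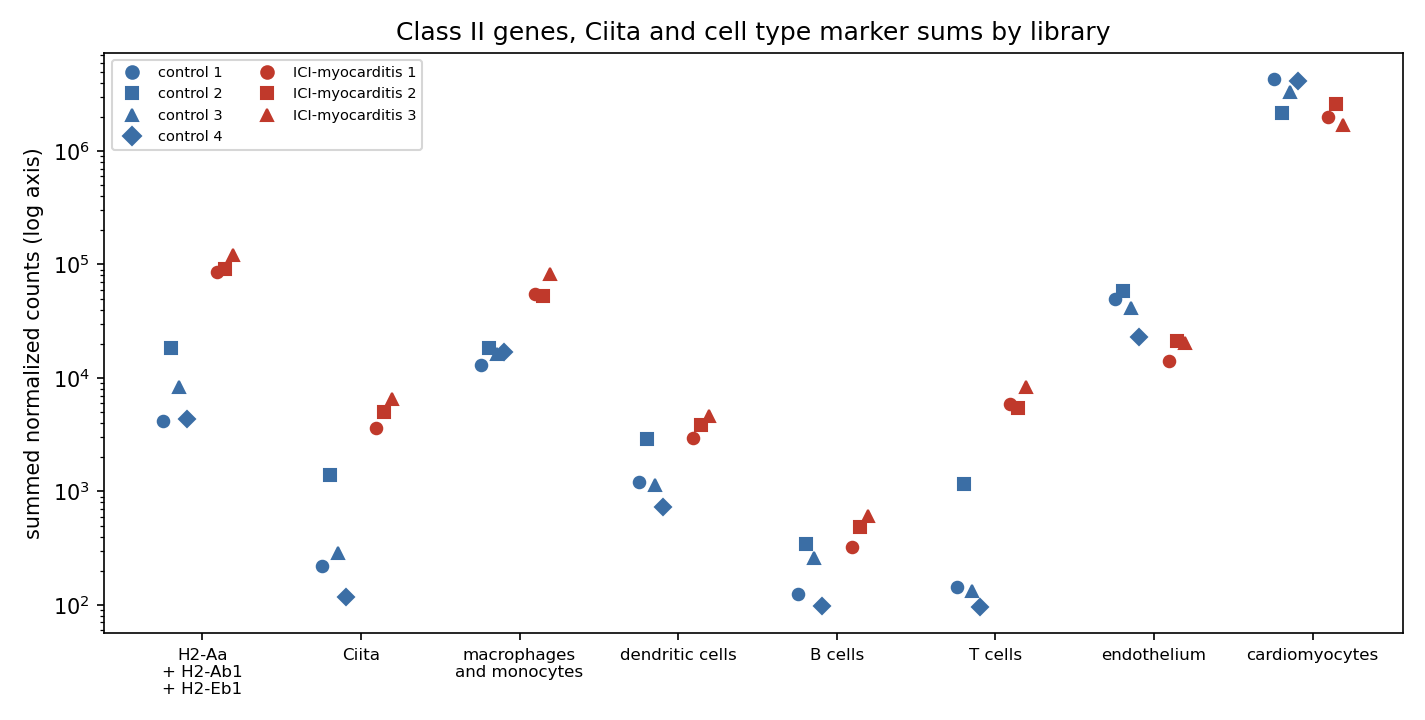
Summed normalized counts (log axis) per library for the classical class II genes, Ciita and 6 cell type marker lists; blue marks are controls, red marks ICI-myocarditis hearts. Class II, Ciita, macrophage, dendritic and T cell marks are higher in red than in blue, the B cell marks overlap, and endothelial marks are lower in red.

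Likeness of profile was measured as the root mean square difference between centred log2 values over the 7 libraries, where 0 is an identical profile. For Ciita the 5 nearest named genes outside the set were Stat4 (0.133), Kcna3 (0.21), Gpr174 (0.224), Cd5 (0.232) and Niacr1 (0.248), against a median of 2.23 over all genes tested. Stat4, for example, stood at 11.1, 93.8, 14.5 and 5.0 in the controls and at 207.7, 256.5 and 358.4 in ICI-myocarditis, with the same high control 2. Of the other members H2-DMb1 was nearest to Ciita (0.362) and H2-Ob farthest (1.08). The 5 genes were picked as the nearest of all tested named genes outside the set, so setting members against them shows nothing about the members. For the mean profile of H2-Aa, H2-Ab1, H2-Eb1 and Cd74 the nearest genes were Xcr1 (0.17), Mag (0.203), C4b (0.246), Cfb (0.247) and Ly9 (0.253), against a median of 2.05. H2-DMa, which was not used in that mean, stood at 0.178, and H2-Ob was again the farthest member (0.968).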

How the data were processed

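The authors deposited 1 table of normalized counts, a signal that equals gene reads divided by 1 size factor per library, for 7 hearts, with their own log2 fold change, test score and p-value, raw and adjusted, per the file headers. STAR 2.7.3 and the builds GRCm38 and mm10 are named per the submitters' processing notes, and the counting program and its use of strand are not given in the sources used here. Values were 100% whole multiples of 1 step per library (tolerance 0.01), which for control 1, with a step of 1.01, is a weak sign of whole reads. Columns of other samples numbered 0.

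The 10 members, lists and tests were chosen with earlier results of these data known. Named genes are the members, the list genes, the leading markers and the 5 nearest profiles. Tests covered genes that reached 10 normalized counts in 3 or more libraries, by limma 3.58.1 in R 4.3.3 on log2(normalized count + 1), with trend and robust variance and Benjamini-Hochberg adjustment over 15258 genes, threshold 0.05. The size of the change of low genes depends on this scale. For H2-Oa it gave a log2 fold change of 3.78, against 3.45 in edgeR, 3.50 in DESeq2 and 2.23 at a pseudocount of 8. Summed shares and ratios were tested by exact permutation over libraries. The alternatives included edgeR 4.0.16 and DESeq2 1.42.0 on recovered reads. On simulated counts with the group sizes of this comparison limma recovered 99% of genes changed by a log2 of 2 and 59.6% of those changed by 1, over 14887 genes, with 2.48% wrong calls. The simulation gave all genes the same dispersion of 0.05 and set no library apart. Real controls varied more in the members, as for Ciita with 505 ± 596 (SD), so these rates do not carry over to them. Libraries held 20931730 to 39037176 reads, and limits from counts of 0 cover counting error only. Lengths and coordinates came from GENCODE M21 and promoters from RefSeq. Spi1, 2 loading genes, H2-Ea, Hsd17b8, Adgre1 and Trac were not matched by symbol. Sequence of H2-DMb1 is left out because its whole window lies inside a GENCODE exon. The design text gives each group in mice, so libraries were taken as separate animals. Replicate numbers did not pair the libraries. Values of 2 list genes are not reported here.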

Additional observations from a re-analysis of the deposited data

Results flagged for a closer look

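Among 73 results checked in the 4 controls, 4 had a library whose gap to the nearest other control exceeded Dixon's critical share of the range for 4 samples, where chance gives about 3.6. Ratios among the members gave 2 of them. The ratio of Cd74 to the classical chains had control 1 on the high side, with a gap of 0.961 of the range, and the ratio of H2-DM to the classical chains had control 3 on the low side, with a gap of 0.913. The other two are Itgax (0.881) and Lag3 (0.845), both with control 2 on the high side.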

How the results depend on the processing

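Over 159 alternative values of single members the log2 fold change stayed between 1.62 and 4.75, 149 kept their side of the threshold, 10 lost it, all of them for H2-Ob or H2-Oa, and 0 changed sign. Members called numbered 8 without ICI-myocarditis 2 or ICI-myocarditis 3 (5.51% of genes higher in the latter) and 9 or 10 otherwise. Calls over all genes numbered 2397, between 986 (without ICI-myocarditis 3) and 3340 (without control 2) with 1 library left out, 5959 with array quality weights, whose estimation did not reach its tolerance, 2076 with edgeR and 3441 with DESeq2. The log2 difference of the members' read share was 4.07 and ran from 3.7 to 4.59 with 1 library left out, where the exact permutation p was the smallest possible, 0.1 or 0.0667. With a replicate block over same-numbered libraries it was 3.7 (exact sign-flip p = 0.25, the smallest possible), members called numbered 9 and all calls 1780, but the numbers do not pair the libraries, since residual correlations were -0.271, -0.206 and -0.078. Among all results 10 alternative values changed sign. Ccr9 went from 0.39 to -0.34 with quality weights and to -0.13 with the block or without control 4 (-0.13 to 0.85 with 1 library left out). Cr2 went from -0.45 to 0.15 without control 2 (-1.15 to 0.15). The ratio of H2-DMb2 to H2-DMb1 went from -0.01 to 0.09 without a pseudocount and to 0.04, 0.1, 0.01 and 0.01 without control 1, control 3, ICI-myocarditis 2 and ICI-myocarditis 3 (-0.16 to 0.1), and that of classical chains to Ciita from -0.17 to 0.06 without control 4 (-0.43 to 0.06). The cause was not tested. Scaling by library total moved the median of all genes from -0.02 to 0.14. Depth limits H2-Oa, with 9 or fewer reads in each control.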
